A study of Mus musculus with 2 samples.

Results

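Chemokine and chemoattractant receptors are G protein-coupled receptors through which leukocytes sense gradients of chemokines, chemerin, formylated peptides and other attractants. Most couple to inhibitory G proteins and steer cell migration, while a few atypical members bind a ligand without that signalling. On macrophages they are known for guiding recruitment, retention and positioning in tissue. The 9 genes described here were Ccr1, Ccr2, Ccr3, Ccr7, Ccrl2, Cx3cr1, Cxcr4, Cmklr1 and Fpr1, chosen by gene symbol out of 23444 symbols in the tables. All 9 were found, each with a single transcript row, so the value of a gene is that of its row.

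The data are 2 RNA-seq libraries of macrophages grown from mouse bone marrow, 1 per group. The first is labelled RON TK-/- (RON deficient, FVB background) and the second WT (RON proficient, FVB). RON, encoded by Mst1r, is a receptor tyrosine kinase of macrophages. Per the labels, cells of both groups received 10 ng/mL recombinant interleukin-4, a cytokine that drives alternative (M2) activation, for 72 hours. The comparison asks how RON status goes with RNA levels in such cells. The labels do not say whether a library holds 1 animal or a pool. The unit is FPKM, fragments per kilobase of transcript relative to sequencing depth, which allows levels of different genes to be compared per length. The files imply about 67100000 reads for the RON TK-/- labelled library and 59800000 for the WT labelled library. With 1 library per group no difference has a replicate check, so no test was run, and "higher" and "lower" compare these 2 libraries and not the genotypes. In such bulk RNA, fewer cells of a type and less RNA per cell cannot be told apart.

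Some marker genes went against the labels. Mst1r was listed at 0 FPKM in both libraries and checked neither label. Arg1, an interleukin-4 response gene, had 5041 FPKM in the RON TK-/- labelled library and 1.005 in the WT labelled library. Chil3 and Retnla, of the same response, had 4604 and 3665 FPKM in the RON TK-/- labelled library and were listed at 0 in the WT labelled library. The inflammatory cytokine genes Tnf and Il1b had 0.52 and 0.20 FPKM in the RON TK-/- labelled library, against 1262 and 823 in the WT labelled library. The libraries are therefore called by their labels throughout, and each direction rests on those labels. Macrophage genes were high in both, with Csf1r at 267 FPKM labelled RON TK-/- and 184 labelled WT, and Cd68 at 955 FPKM labelled RON TK-/- and 746 labelled WT. All 6 stromal markers were also detected (summed level 894 FPKM in the RON TK-/- labelled library, 669 in the WT labelled library). Col3a1, Pdgfra and Pecam1 were higher by 2-fold or more in the RON TK-/- labelled library, as were 25.6% of all detected genes. Col1a1, Col1a2 and Dcn were within 2-fold. After subtracting the median difference of all detected genes, only Col3a1 of the 6 stayed beyond 2-fold. The summed level of 7 dendritic cell markers was 41.6 FPKM labelled RON TK-/- and 22.8 labelled WT, and the 2 detected ones lay opposite ways. Itgax had 29.5 FPKM labelled RON TK-/- and 2.89 labelled WT, and Batf3 11.4 FPKM labelled RON TK-/- and 18.9 labelled WT. That of 8 neutrophil markers was 7.26 FPKM labelled RON TK-/- and 4.75 labelled WT, with Mpo, Elane, Ngp and S100a9 at 0 in both. The eosinophil genes Epx and Prg2 and the T cell genes Cd3e and Cd3d were at 0 in both. None of 4 eosinophil, 5 mast cell and basophil, 6 T and NK cell and 3 B cell markers reached 1 FPKM in either library. The highest of these was Cd4, with 0.81 FPKM labelled RON TK-/- and 0.41 labelled WT. The part of stromal, dendritic and neutrophil cells in the values below was not tested.

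The receptor genes lie on 5 chromosomes of the mm10 build, and 5 of the 9 lie on chromosome 9. Ccr1 (123962126 to 123968692), Ccr3 (124021971 to 124031689) and Ccr2 (124102183 to 124109140) are neighbours there, while Ccrl2 (111054835 to 111057270) lies 12.9 Mb before Ccr1 and Cx3cr1 (120048683 to 120068296) between them. Cxcr4 is on chromosome 1 (128588199 to 128592299), Cmklr1 on chromosome 5 (113612355 to 113650390), Ccr7 on chromosome 11 (99144199 to 99155077) and Fpr1 on chromosome 17 (17876471 to 17883939). In the matching GENCODE transcripts of the same assembly the protein is encoded within 1 exon, apart from Cxcr4 with 2 coding exons and Ccr7 with 3. Ccr2 and Ccr3 are on the plus strand and the other 7 on the minus strand. Of the 9 loci only that of Cmklr1 overlaps another annotated gene, the antisense Gm15736, and since strand use is not given their reads cannot be told apart.

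The bases before the start sites of 4 receptor genes are shown, because these genes span the range of differences: Ccrl2 and Fpr1 were lower in the RON TK-/- labelled library, Cxcr4 was higher and Ccr1 lay at the median of all genes. The sequences are RefSeq promoter windows of GRCm38.p6, read 5′ to 3′ on the minus strand, without bases that an annotated exon covers. Capitals mark matches to the motifs searched. They cover chr9:111057520-111057768 for Ccrl2, chr17:17883941-17884189 for Fpr1, chr1:128592300-128592549 for Cxcr4 and chr9:123968693-123968942 for Ccr1. The Ccrl2 stretch belongs to the outermost of its 3 start sites, 248 bases before that of the listed transcript.
Ccrl2: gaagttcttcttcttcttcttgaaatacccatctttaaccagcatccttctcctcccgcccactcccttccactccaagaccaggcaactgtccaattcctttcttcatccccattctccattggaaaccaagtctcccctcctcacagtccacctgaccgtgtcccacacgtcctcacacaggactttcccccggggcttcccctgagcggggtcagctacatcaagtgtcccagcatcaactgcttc
Fpr1: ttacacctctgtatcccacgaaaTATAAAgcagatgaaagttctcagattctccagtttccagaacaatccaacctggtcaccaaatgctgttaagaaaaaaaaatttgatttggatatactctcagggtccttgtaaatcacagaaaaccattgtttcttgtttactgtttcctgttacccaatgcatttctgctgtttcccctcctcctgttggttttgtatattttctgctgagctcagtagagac
Cxcr4: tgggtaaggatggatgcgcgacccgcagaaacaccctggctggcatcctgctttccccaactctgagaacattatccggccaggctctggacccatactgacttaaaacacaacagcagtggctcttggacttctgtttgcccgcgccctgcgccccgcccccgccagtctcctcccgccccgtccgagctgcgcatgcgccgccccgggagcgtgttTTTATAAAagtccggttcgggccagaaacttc
Ccr1: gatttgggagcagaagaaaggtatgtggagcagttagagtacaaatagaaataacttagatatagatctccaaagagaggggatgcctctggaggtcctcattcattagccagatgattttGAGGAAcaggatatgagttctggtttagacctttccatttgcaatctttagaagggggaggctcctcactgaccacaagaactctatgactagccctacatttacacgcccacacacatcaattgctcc

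The motifs were searched on both strands of the 300 base windows. They were the STAT6 site (TTC and GAA with 4 bases between, in 6.95% of all 32851 windows), the gamma-activated site (TTC and GAA with 3 bases between, 8.30%), the interferon response element (GAAA and GAAA with 2 bases between, 3.44%), the NF-kB site (GGG and TTTCC with 2 bases between, 1.63%), the PU.1 core GAGGAA (28.3%) and the AP-1 site TGANTCA (7.81%). TATAAA (13.6%) was added after the sequences were read. The 3 Ccrl2 windows held none of these letters. Cxcr4 held overlapping TATAAA matches on both strands, beginning 32 and 30 bases before the start, and Fpr1 held TATAAA 227 bases before it. GAGGAA occurred once in the Ccr1 window, 129 bases before the start, and once in the Cmklr1 window. The Ccr3 window held GAGGAA, the NF-kB letters and TGAGTCA, and those of Ccr2 and Cx3cr1 held no match. These are matches of letters only. The RefSeq window of Cmklr1 does not begin at the start of the listed transcript.

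A gene was taken as detected with at least 1 FPKM in either library, which 5 of the 9 receptor genes reached: Ccrl2, Ccr1, Cxcr4, Cmklr1 and Fpr1. The difference is the log2 of (FPKM + 1) in the RON TK-/- labelled library over (FPKM + 1) in the WT labelled library, a scale that understates differences of low genes. Cxcr4 and Cmklr1 were higher by 2-fold or more in the RON TK-/- labelled library, where 25.6% of 11288 detected genes were. Ccrl2 and Fpr1 were lower by 2-fold or more, where 8.71% of detected genes were. Ccr1 was within 2-fold. The median of the 5 genes was 0.56 on that log2 scale, beside 0.57 for all detected genes, and after subtracting that 0.57 the same 4 genes were still beyond 2-fold (2 higher and 2 lower, where 8.38% and 14.4% of all detected genes were).

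**Figure D1:**
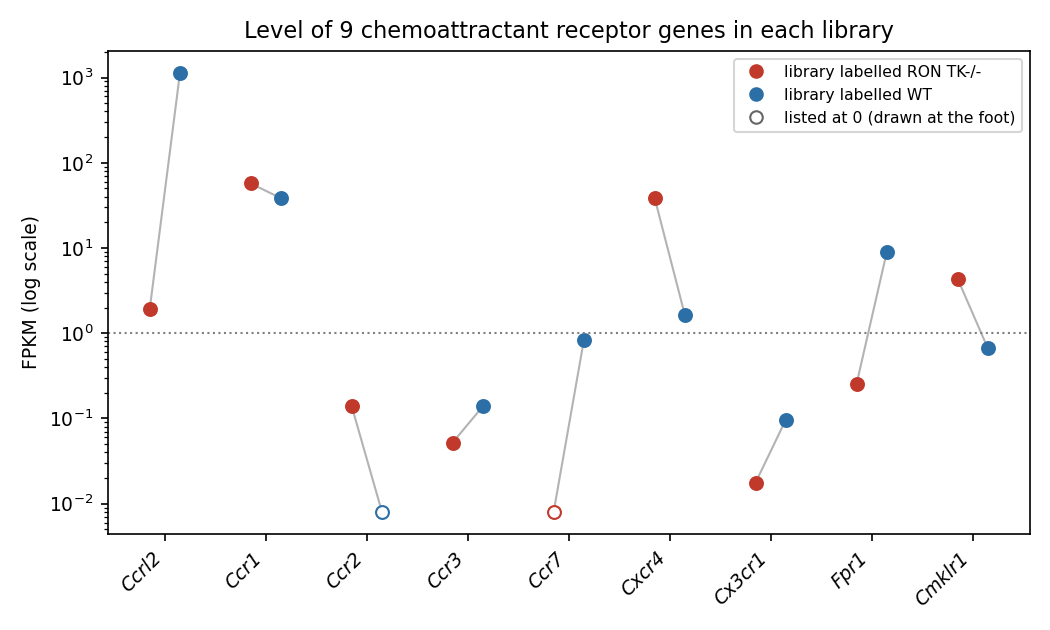
FPKM (log scale) of the 9 receptor genes, with the RON TK-/- labelled library left and the WT labelled library right for each gene, 1 point per library. The dotted line marks 1 FPKM and open points are genes listed at 0; Ccrl2 has 1.91 FPKM labelled RON TK-/- and 1139 labelled WT, while Ccr1 is within 2-fold.

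**Figure D2:**
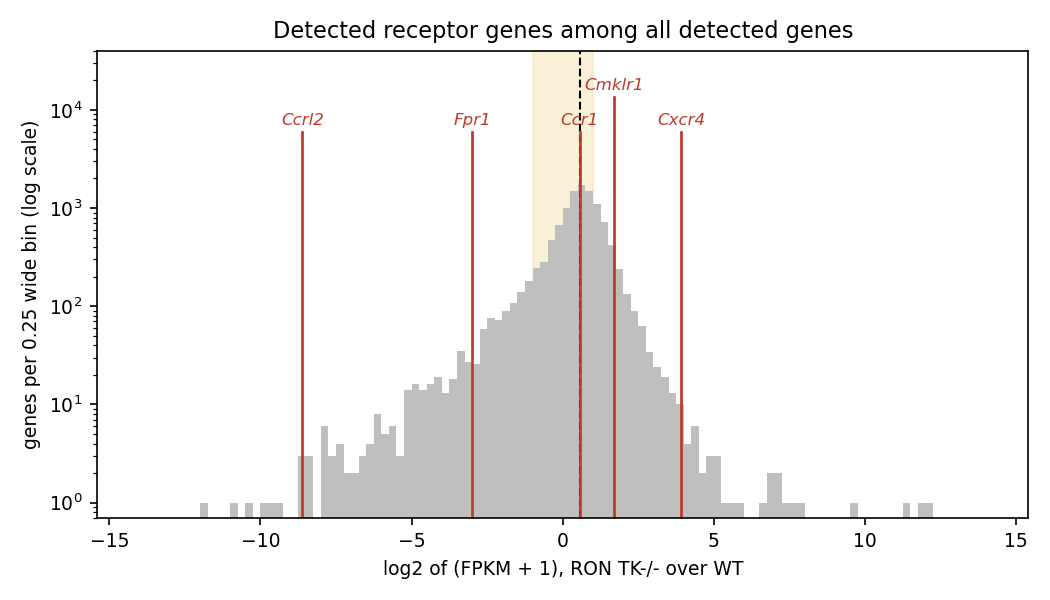
Histogram of the log2 difference in (FPKM + 1), RON TK-/- over WT, for 11288 detected genes, with gene counts on a log scale. Red lines mark the 5 detected receptor genes, the dashed line the median of 0.57 and the shaded band differences within 2-fold; Ccr1 lies on the median and Ccrl2 in the far left tail.

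Ccrl2 had the widest difference of the 9. Its product is an atypical receptor that binds chemerin and presents it to other cells rather than signalling itself. Ccrl2 had 1.91 FPKM in the RON TK-/- labelled library, against 1139 FPKM in the WT labelled library. It was 595-fold lower in FPKM in the RON TK-/- labelled library, a log2 FPKM ratio of -9.22 with a 95% counting interval from -9.40 to -9.05. That interval is an exact binomial interval on reads estimated from the deposited coverage (270 reads labelled RON TK-/-, 142401 labelled WT), and here and below such intervals cover counting error only. On the (FPKM + 1) scale the log2 difference was -8.61, the 8th lowest of 11288 detected genes. Its transcript shared no stretch of 50 bases, the length of a read, with another annotated gene. By level Ccrl2 ranked 10002 of 23444 symbols in the RON TK-/- labelled library and 36 in the WT labelled library. The largest share of the summed FPKM of the 9 genes was that of Ccr1 in the RON TK-/- labelled library, at 55.7%, and that of Ccrl2 in the WT labelled library, at 95.7%.

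Cmklr1 encodes the signalling chemerin receptor, which shares its ligand with the Ccrl2 product. Cmklr1 had 4.37 FPKM in the RON TK-/- labelled library and 0.67 in the WT labelled library. It was 6.57-fold higher in FPKM in the RON TK-/- labelled library (log2 FPKM ratio 2.72, counting interval 2.43 to 3.01, from 823 estimated reads labelled RON TK-/- and 116 labelled WT), and its log2 difference in FPKM + 1 was 1.69. With a pseudocount of 5 in place of 1 that difference was 0.73, within 2-fold. It was thus a low gene in both libraries and lay on the opposite side from Ccrl2. The chemerin gene itself, Rarres2, had 33.2 FPKM in the RON TK-/- labelled library and 9.95 in the WT labelled library, a log2 difference in FPKM + 1 of 1.64.

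Cxcr4, the receptor for the stromal chemokine CXCL12 and known for retaining cells in bone marrow, had 38.8 FPKM in the RON TK-/- labelled library and 1.63 in the WT labelled library. It was 23.8-fold higher in FPKM in the RON TK-/- labelled library, with a log2 FPKM ratio of 4.57 and a counting interval from 4.35 to 4.81 (4553 estimated reads labelled RON TK-/-, 161 labelled WT). Its log2 difference in FPKM + 1 of 3.92 was the 35th highest of the detected genes. Of the 9 genes it was the second most abundant in the RON TK-/- labelled library, after Ccr1. Its ligand gene Cxcl12 lay the other way, with 45.2 FPKM in the RON TK-/- labelled library and 148 in the WT labelled library. Mif, whose product also binds CXCR4, was within 2-fold (552 FPKM labelled RON TK-/-, 403 labelled WT), and so was Cxcl14 (9.54 FPKM labelled RON TK-/-, 19.01 labelled WT).

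Ccr1, a receptor for inflammatory CC chemokines, was high in both libraries and within 2-fold. Ccr1 had 57.2 FPKM in the RON TK-/- labelled library and 38.4 in the WT labelled library. The log2 FPKM ratio was 0.57 (counting interval 0.53 to 0.62, from 10945 estimated reads labelled RON TK-/- and 6570 labelled WT), and the log2 difference in FPKM + 1 was 0.56, or -0.0037 once the median of all detected genes was subtracted. Its direction thus depended on the scaling, and 49.8% of detected genes had a lower difference. The ligand genes that the Ccr1 product is known to bind in mouse went both ways. Ccl3 had 19.9 FPKM in the RON TK-/- labelled library and 1421 in the WT labelled library, and Ccl5 had 10.4 FPKM labelled RON TK-/- and 2243 labelled WT. Ccl6, in contrast, had 2938 FPKM in the RON TK-/- labelled library and 347 in the WT labelled library, and Ccl9, within 2-fold, had 1166 FPKM labelled RON TK-/- and 827 labelled WT.

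Fpr1, a receptor for formylated peptides of bacteria and mitochondria, had 0.25 FPKM in the RON TK-/- labelled library and 9.06 in the WT labelled library. It was 35.6-fold lower in FPKM in the RON TK-/- labelled library (log2 FPKM ratio -5.15, counting interval -5.85 to -4.53, from 21 estimated reads labelled RON TK-/- and 718 labelled WT). The log2 difference in FPKM + 1 was -3.003, with 2.03% of detected genes lower. Fpr2, which encodes a second formyl peptide receptor and begins 3.89 kb beyond Fpr1, had 0.15 FPKM in the RON TK-/- labelled library and 30.8 in the WT labelled library. Both genes were thus lower in the RON TK-/- labelled library, and of the 1275 stretches of 50 bases in the Fpr1 transcript, 1 was also in Fpr2. On the other side of Fpr1, Has1, which encodes a hyaluronan synthase, had 0.12 FPKM in the RON TK-/- labelled library and 14.2 in the WT labelled library. Spaca6 had 0.48 FPKM labelled RON TK-/- and 1.08 labelled WT. Anxa1, whose protein is a ligand of formyl peptide receptors, was within 2-fold, at 553 FPKM in the RON TK-/- labelled library and 288 in the WT labelled library.

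The other 4 receptor genes stayed below 1 FPKM in both libraries and were not counted as detected. Ccr7, which guides dendritic cells to lymph nodes, was listed at 0 in the RON TK-/- labelled library and had 0.84 FPKM (106 estimated reads) in the WT labelled library. Its ligand genes Ccl19 and Ccl21a were listed at 0 in both. Ccr2, the monocyte receptor for CCL2, had 0.14 FPKM (30 estimated reads) in the RON TK-/- labelled library and was listed at 0 in the WT labelled library, where 3 reads would have given 0.014 FPKM. For Ccr7 in the RON TK-/- labelled library 3 reads would have given 0.023 FPKM. Every row of both tables, these included, carries the status OK, and no fold is given against a library listed at 0.

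Ccr2 shared 110 of its 2950 stretches of 50 bases (3.73%) with another gene, so the origin of the 30 estimated reads behind its low value is uncertain. The Ccr2 ligand genes were abundant all the same. Ccl2 had 578 FPKM in the RON TK-/- labelled library and 2930 in the WT labelled library, Ccl7 had 917 FPKM labelled RON TK-/- and 1678 labelled WT, and Ccl12 had 617 labelled RON TK-/- and 414 labelled WT. Of these only Ccl2 was beyond 2-fold.

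Ccr3, the eotaxin receptor of eosinophils, had 0.052 FPKM in the RON TK-/- labelled library and 0.14 in the WT labelled library (9 estimated reads labelled RON TK-/-, 26 labelled WT). The log2 FPKM ratio was -1.42 with a counting interval from -2.69 to -0.28. Of its ligand genes, the eotaxin genes Ccl11 and Ccl24 had 60.9 and 101 FPKM in the RON TK-/- labelled library, where Ccr3 was near 0. In the WT labelled library Ccl11 had 4.44 FPKM and Ccl24 was listed at 0. Cx3cr1, the fractalkine receptor of monocytes and tissue macrophages, had 0.018 FPKM in the RON TK-/- labelled library and 0.097 in the WT labelled library (2 estimated reads labelled RON TK-/-, 18 labelled WT). The log2 FPKM ratio was -2.46, with a wide counting interval from -5.61 to -0.39. The fractalkine gene Cx3cl1 had 0.96 FPKM in the RON TK-/- labelled library and 28.3 in the WT labelled library. For both receptors the reads were too few to place the size of the difference.

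Ordered by level, the RON TK-/- labelled library had Ccr1, Cxcr4, Cmklr1 and Ccrl2 above 1 FPKM, followed by Fpr1, Ccr2, Ccr3 and Cx3cr1, with Ccr7 listed at 0. The WT labelled library had Ccrl2, Ccr1, Fpr1 and Cxcr4 above 1 FPKM, followed by Ccr7, Cmklr1, Ccr3 and Cx3cr1, with Ccr2 listed at 0. The summed FPKM of the 9 genes was 103 in the RON TK-/- labelled library and 1190 in the WT labelled library. Without Ccrl2 the sums were 101 FPKM labelled RON TK-/- and 50.8 labelled WT, so the order of the libraries turned on that gene. With no replicates, no neighbours in these orders can be called equal or apart.

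Other chemoattractant receptors were taken from a list of 34, of which 33 were matched and 10 detected. Of these 10, 2 were higher by 2-fold or more in the RON TK-/- labelled library, 3 lower by 2-fold or more and 5 within 2-fold, with a median log2 difference in FPKM + 1 of -0.073, midway between S1pr1 (-0.65) and C3ar1 (0.51). Of all detected genes, 25.6% were higher by 2-fold or more and 8.71% lower. The higher genes were the leukotriene B4 receptor gene Ltb4r1 (4.72 FPKM in the RON TK-/- labelled library, 0.81 in the WT labelled library) and the ADP receptor gene P2ry12 (5.56 FPKM labelled RON TK-/-, 1.82 labelled WT). The lower genes were Fpr2, the platelet-activating factor receptor gene Ptafr (9.76 FPKM in the RON TK-/- labelled library, 138 in the WT labelled library) and Cxcr3 (0.25 FPKM labelled RON TK-/-, 2.14 labelled WT). With a pseudocount of 5, Ltb4r1, P2ry12 and Cxcr3 were within 2-fold. The complement peptide receptor genes were abundant and within 2-fold, with C3ar1 at 273 FPKM in the RON TK-/- labelled library and 192 in the WT labelled library, and C5ar1 at 53.8 FPKM labelled RON TK-/- and 102 labelled WT. Also within 2-fold were the nucleotide receptor gene P2ry6 (58.7 FPKM labelled RON TK-/-, 38.7 labelled WT), the sphingosine-1-phosphate receptor gene S1pr1 (24.6 FPKM labelled RON TK-/-, 39.3 labelled WT) and Ackr3, an atypical receptor for CXCL12 (13.1 FPKM labelled RON TK-/-, 8.18 labelled WT). After subtracting the median of all detected genes, 1 of the 10 was higher by 2-fold or more and 5 lower by 2-fold or more, where 8.38% and 14.4% of all detected genes were. The remaining 23 were under 1 FPKM in both libraries, and 10 of them were listed at 0 in both, among them Ccr6, Ccr8 and Ccr1l1, the neighbour of Ccr1.

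**Figure D3:**
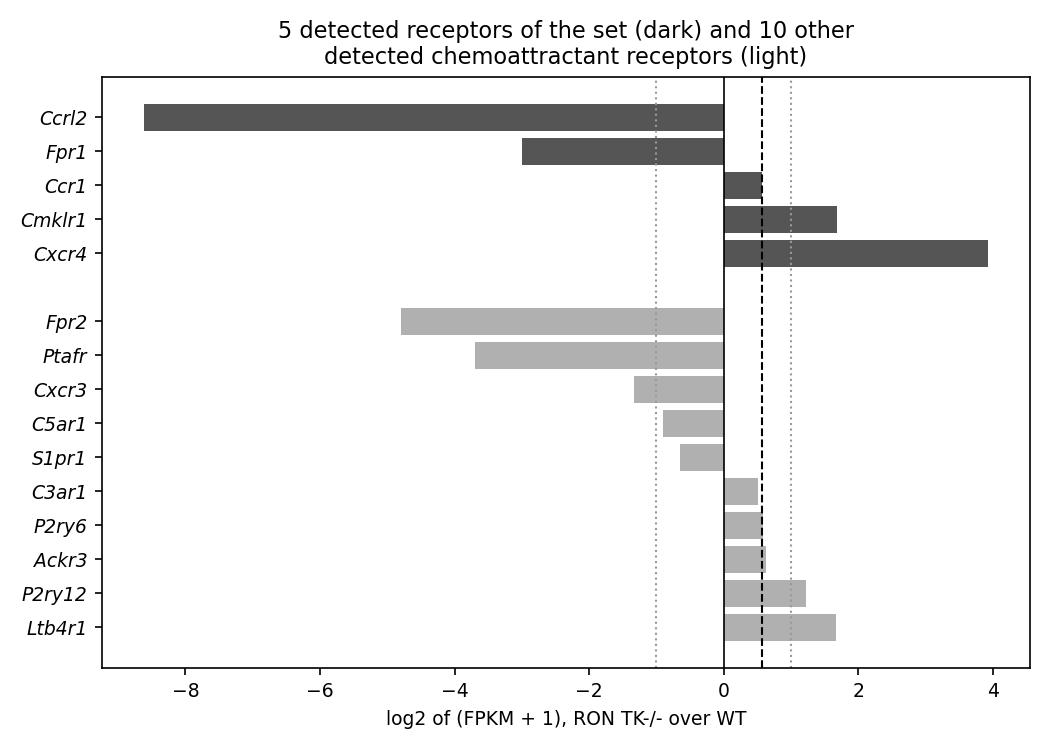
Log2 difference in (FPKM + 1), RON TK-/- over WT, for the 5 detected receptor genes of the set (dark bars) and 10 other detected chemoattractant receptor genes (light bars). Dotted lines mark 2-fold and the dashed line the median of all detected genes, 0.57; Ccrl2 at -8.61 and Cxcr4 at 3.92 are the extremes.

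Of 19 ligand genes 17 were detected, with 5 higher by 2-fold or more in the RON TK-/- labelled library, 6 lower by 2-fold or more and 6 within 2-fold (median log2 difference in FPKM + 1 of 0.45), beside 25.6% higher and 8.71% lower among all detected genes. After subtracting the median of all detected genes, 5 were higher and 8 lower, beside 8.38% and 14.4%. The higher genes were Ccl6, Ccl8, Ccl11, Ccl24 and Rarres2, and Ccl8 had 1321 FPKM in the RON TK-/- labelled library against 55.8 in the WT labelled library. The 6 lower genes were Ccl2, Ccl3, Ccl4, Ccl5, Cx3cl1 and Cxcl12, and Ccl4 had 28.8 FPKM in the RON TK-/- labelled library against 1643 in the WT labelled library. Ligand and receptor levels did not pair off in a single way. Rarres2 and its receptor gene Cmklr1 were both higher in the RON TK-/- labelled library, whereas Cxcl12 was lower there and Cxcr4 higher.

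**Figure D4:**
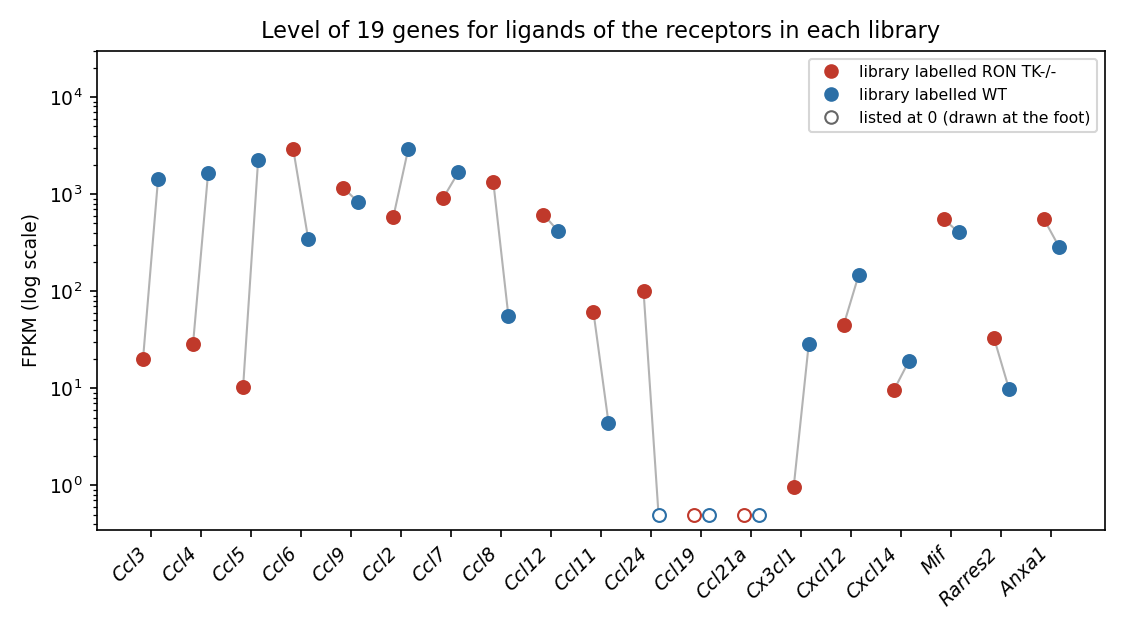
FPKM (log scale) of 19 ligand genes, with the RON TK-/- labelled library left and the WT labelled library right for each gene, 1 point per library. Open points are genes listed at 0; Ccl3, Ccl4 and Ccl5 are lower, and Ccl6, Ccl8, Ccl11 and Ccl24 higher, in the RON TK-/- labelled library.

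The signalling genes downstream of these receptors were all detected, 33 of 33. Of them 6 were higher by 2-fold or more in the RON TK-/- labelled library, 7 lower by 2-fold or more and 20 within 2-fold, with a median log2 difference in FPKM + 1 of 0.19. Among all detected genes 25.6% were higher and 8.71% lower. After subtracting the median of all detected genes the counts were 2 higher and 9 lower, where the shares of all detected genes were 8.38% and 14.4%. Gnai2, the inhibitory G protein subunit through which these receptors mostly signal, had 319 FPKM in the RON TK-/- labelled library and 310 in the WT labelled library. The widest difference was that of Rgs1, which shuts off G protein signalling, with 6.22 FPKM in the RON TK-/- labelled library and 196 in the WT labelled library. Rgs16, of the same family, had 14.7 FPKM labelled RON TK-/- and 60.4 labelled WT. Of that family Rgs14 (6.18 FPKM labelled RON TK-/-, 1.39 labelled WT) was instead higher by 2-fold or more. So were Rgs18 (13.9 FPKM labelled RON TK-/-, 5.71 labelled WT) and Rgs19 (35.1 FPKM labelled RON TK-/-, 11.6 labelled WT). Rgs2, Rgs3 and Rgs10 were within 2-fold. Also lower in the RON TK-/- labelled library were the tyrosine kinase gene Ptk2b (14.96 FPKM against 95.3 in the WT labelled library) and Pik3r5, a regulatory subunit of PI3K gamma (19.7 FPKM labelled RON TK-/-, 113 labelled WT). Pik3cg, of the same PI3K gamma, was higher by 2-fold or more (9.80 FPKM labelled RON TK-/-, 3.18 labelled WT). Gna13, which couples receptors to control of the cytoskeleton, had 30.9 FPKM in the RON TK-/- labelled library and 156 in the WT labelled library. The arrestin gene Arrb1, whose product helps desensitise receptors, lay the other way with 32.2 FPKM in the RON TK-/- labelled library and 7.51 in the WT labelled library.

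Genes beside the receptors did not share 1 direction. The named ones beyond 2-fold, Fpr2, Has1 and Csrnp1, were lower in the RON TK-/- labelled library. Above the median but within 2-fold were Ficd near Cmklr1 (log2 difference in FPKM + 1 of 0.97) and Slc25a38 near Cx3cr1 (0.87). Beside Ccrl2, the lactoferrin gene Ltf was not detected, with 0.023 FPKM in the RON TK-/- labelled library and 0.078 in the WT labelled library. Those values rest on 3 estimated reads labelled RON TK-/- and 14 labelled WT. Lrrfip2, within 2-fold on the scale of FPKM + 1, had 13.1 FPKM labelled RON TK-/- and 26.8 labelled WT. Near Cx3cr1, Csrnp1 had 6.59 FPKM in the RON TK-/- labelled library and 110 in the WT labelled library, while the ribosomal protein gene Rpsa had 435 FPKM labelled RON TK-/- and 292 labelled WT. The log2 difference of Rpsa in FPKM + 1 was 0.57, at the median of all detected genes. In the span from Ccrl2 to Ccr1 with 100 kb on each side, 65 of 137 genes were detected, with 19 higher by 2-fold or more and 4 lower by 2-fold or more in the RON TK-/- labelled library and a median log2 difference in FPKM + 1 of 0.56. Among all detected genes the shares were 25.6% higher and 8.71% lower, with a median of 0.57.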

How the data were processed

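Per the labels' protocols, TRIZOL was used to extract total RNA, and TruSeq RNA libraries were read as single reads of 50 bases. Per the file headers, the authors deposited 1 Cufflinks-style table per library, with FPKM per RefSeq transcript. The deposited coverage column is the mean read depth per base. Build mm10 and DESeq, with no role, appear in the submitters' processing notes. The aligner is unnamed in the sources used here.

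Total read counts were not used here. Coverage over FPKM implied 67100000 and 59800000 reads in the RON TK-/- and WT labelled libraries, and 10911 and 9982 genes reached 1 FPKM. Reads per gene were estimated as coverage times length over 50. They are estimates, so no count test was applied.

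FPKM was summed per symbol, and log2 ratios used a pseudocount of 1. No test was run. Intervals are exact Clopper-Pearson binomial intervals at 95% on rounded estimated reads (scipy 1.17.1), and a floor is 3 reads. The ratio and the interval were tested on simulated data. Locus starts count from 0 in the files and from 1 here.

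The receptor genes and lists were chosen with earlier results of these data known. Named are all receptor genes, 6 label checks, detected genes of the receptor list, the ligands, the 6 signalling genes with the largest absolute differences, and genes near the receptors. Gnai2 and the further signalling genes named were added after their values were seen. The rule for neighbours took in the whole span from Ccrl2 to Ccr1, given by counts, and the neighbours named were chosen after their values were seen. Alternatives were other pseudocounts, filters, scalings, thresholds and row choice. Fpr-rs7, Ly6g and Siglecf were not matched, and protein sequences were not used here. A few genes were left out of the lists before counting and are not reported here.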

Additional observations from a re-analysis of the deposited data

How the results depend on the processing

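Over 8 alternatives other than the threshold, Ccrl2 (log2 difference -9.18 to -7.37), Fpr1 (-4.69 to -1.42) and Cxcr4 (2.72 to 4.49) kept their direction and stayed beyond 2-fold. Cmklr1 kept its direction in all 8 and stayed beyond 2-fold in 7, with 0.73 at a pseudocount of 5. Ccr1 lay between -0.0037 and 0.57. Ccr7 was lower by 2-fold or more in the RON TK-/- labelled library in 4 of 8 (-3.23 to -0.22).

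The number of receptor genes of the set higher by 2-fold or more was 1 in place of 2 with a pseudocount of 5, a 5 FPKM minimum or a 4-fold threshold. A minimum of 5 FPKM leaves out Cmklr1. The number lower by 2-fold or more was 2 under each alternative run. Their median of 0.56 was -0.11 with no filter, -1.22 with a 5 FPKM minimum and -0.004 after median rescaling, since fewer or more genes enter or the median of all genes is subtracted. It was 0.573 and 0.519 with pseudocounts of 0.1 and 5, 0.505 as TPM and 0.54 from estimated reads.

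Of the other chemoattractant receptors, the number higher by 2-fold or more (2) was 0 with a pseudocount of 5, 1 with a 5 FPKM minimum or after median rescaling, 4 at 1.5-fold and 0 at 4-fold, and the number lower (3) was 5 after median rescaling and 5 at 1.5-fold, and 2 with a pseudocount of 5, a 5 FPKM minimum or a 4-fold threshold. Their median of -0.073 was -0.081 with a pseudocount of 0.1, 0.009 with the sign reversed at 5, 0 with no filter, -0.639 after median rescaling, -0.143 as TPM and -0.12 from estimated reads; the 10 detected genes were split evenly around 0.

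Over all genes, 2890 higher became 983 with a pseudocount of 5, 946 after median rescaling, 5519 at 1.5-fold and 419 at 4-fold, and 983 lower became 1627 after median rescaling and 463 at 4-fold. Higher genes were 74.6% of those beyond 2-fold as deposited and 36.8% after median rescaling. The median of all detected genes was 0.653 and 0.346 with pseudocounts of 0.1 and 5, 0 with no filter, 0.538 with a 5 FPKM minimum, 0 after median rescaling, 0.56 as TPM or with the most abundant row only, and 0.6 from estimated reads. No paired analysis was possible because each group has 1 library. Leaving out a library was not possible for the same reason, and the depth limits Ccr2, Ccr3 and Cx3cr1, with at most 30 estimated reads per library each.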
